A study of Mus musculus with 25 samples.

Results

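The T cell receptor loci of the mouse were described here through 270 annotated gene segments, out of 49997 annotated genes. They were chosen by position, as the V, D, J and C segments within a window of 1798 kb for the alpha/delta locus (chr14:52427000-54225000), 668 kb for the beta locus (chr6:40891000-41559000) and 179 kb for the gamma locus (chr13:19178000-19357000), in mm10. The alpha/delta window held 136 V, 2 D, 62 J and 2 C segments, the beta window 35 V, 2 D, 14 J and 2 C segments, and the gamma window 7 V, 4 J and 4 C segments. Of all segments, 40 were annotated as pseudogenes, and 30 of these were V segments.

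A T cell receptor chain is assembled in the thymus when the recombinase made of Rag1 and Rag2 joins a V segment to a J segment, with a D segment between them in the beta and delta chains. Joining requires that segments spread over a long stretch of chromosome be brought together and that their chromatin be accessible. CTCF and the ring-shaped cohesin complex, which contains SMC1 and is loaded by NIPBL, form and hold chromatin loops, and acetylation of histone H3 at lysine 27 (H3K27ac) marks active promoters and enhancers. At the CD4-negative, CD8-negative stage called DN3, thymocytes complete rearrangement of the beta locus, whereas most alpha rearrangement follows later. Enhancers of both loci lie beside the constant genes, the beta enhancer between Trbc2 and Trbv31 and the alpha enhancer between Trac and Dad1. TCF-1, the product of Tcf7, is a transcription factor of early T cell development.

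The study mapped binding with ChIP-seq in 2 mouse cell lines, which gave 25 lists of called peaks. Of these, 18 came from Scid.adh, a line from a thymic lymphoma of a scid mouse used as a model of the DN3 stage, and 7 from NIH-3T3 fibroblasts, which do not rearrange these loci. The Scid.adh cells carried either an empty vector (titled wild type, EV below) or a knockout of TCF-1 (TCF1 KO, KO below), and the NIH-3T3 cells were untreated or had TCF-1 induced (TCF1 induced). In the plots the lines are labelled DN3 and 3T3. EV and KO cells each had 2 lists for CTCF, SMC1, NIPBL and H3K27ac, and EV cells had 2 for TCF-1. Untreated and induced fibroblasts each had 2 lists for CTCF and 1 for SMC1, and induced fibroblasts had 1 for TCF-1. Each cell type was represented by 1 line, and nothing in the labels says whether 2 lists came from separate cultures, so the spread between lists, and any p from it, may be technical. Read depth was unknown, and any DNA these cells had lost or rearranged at the loci was not measured, so a stretch without peaks cannot be told apart from a stretch without DNA.

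Lists differed in length and covered length, from 4978 peaks (1.94 Mb) for TCF-1 in EV cells to 105033 peaks (97.74 Mb) for SMC1 in untreated fibroblasts. The KO to EV ratio of mean covered length was 1.28 for CTCF, 1.43 for SMC1, 1.94 for NIPBL and 0.999 for H3K27ac. The NIPBL lists covered 4.85 and 9.69 Mb in EV cells and 19.54 and 8.67 Mb in KO cells, which overlap, and the NIPBL ratio without KO list 1 was 1.19. For the V and D, J, C parts the share of genome tiles that separate the groups is given, and values of single stretches and segments have no such background. For genes, 12010 protein-coding gene bodies had any H3K27ac. Both EV lists were higher in 26.3% of these bodies and both KO lists in 25.5%, so such a separation at a single gene is common. Over Tcf7 itself, H3K27ac covered 25877 and 26543 bp in EV cells and 25463 and 27255 bp in KO cells, which does not check the knockout. The identity of the line was read from H3K27ac. It met the bodies of 7 of 8 DN3 marker genes in all 4 Scid.adh lists, beside 50.1% of 21887 protein-coding genes. By the same measure of all 4 lists it met 0 of 4 B cell and 0 of 3 natural killer markers, 1 of 4 myeloid markers (Itgam) and 2 of 6 fibroblast markers (Thy1, which T cells also express, and Pdgfrb). Over Pdgfrb it covered 10421 and 11185 bp in EV cells and 19969 and 19243 bp in KO cells. The B cell gene Cd79a had 469 and 788 bp in EV cells and 0 and 0 bp in KO cells. Rag2 was the DN3 marker that was not met in every list, with 464 bp covered in KO list 1 and 0 bp in the other lists.

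All 25 lists together placed 1372 peaks in the loci. A peak came within 1 kb of 126 of the 270 segments in at least 1 list, and 144 segments were met by no list. Scid.adh lists met 114 segments, or 42.2%, and fibroblast lists met 43, or 15.9%. No fibroblast list met a D, J or C segment of the beta locus, whereas Scid.adh lists met 13 of 14 beta J segments and both beta constant genes.

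**Figure D1:**
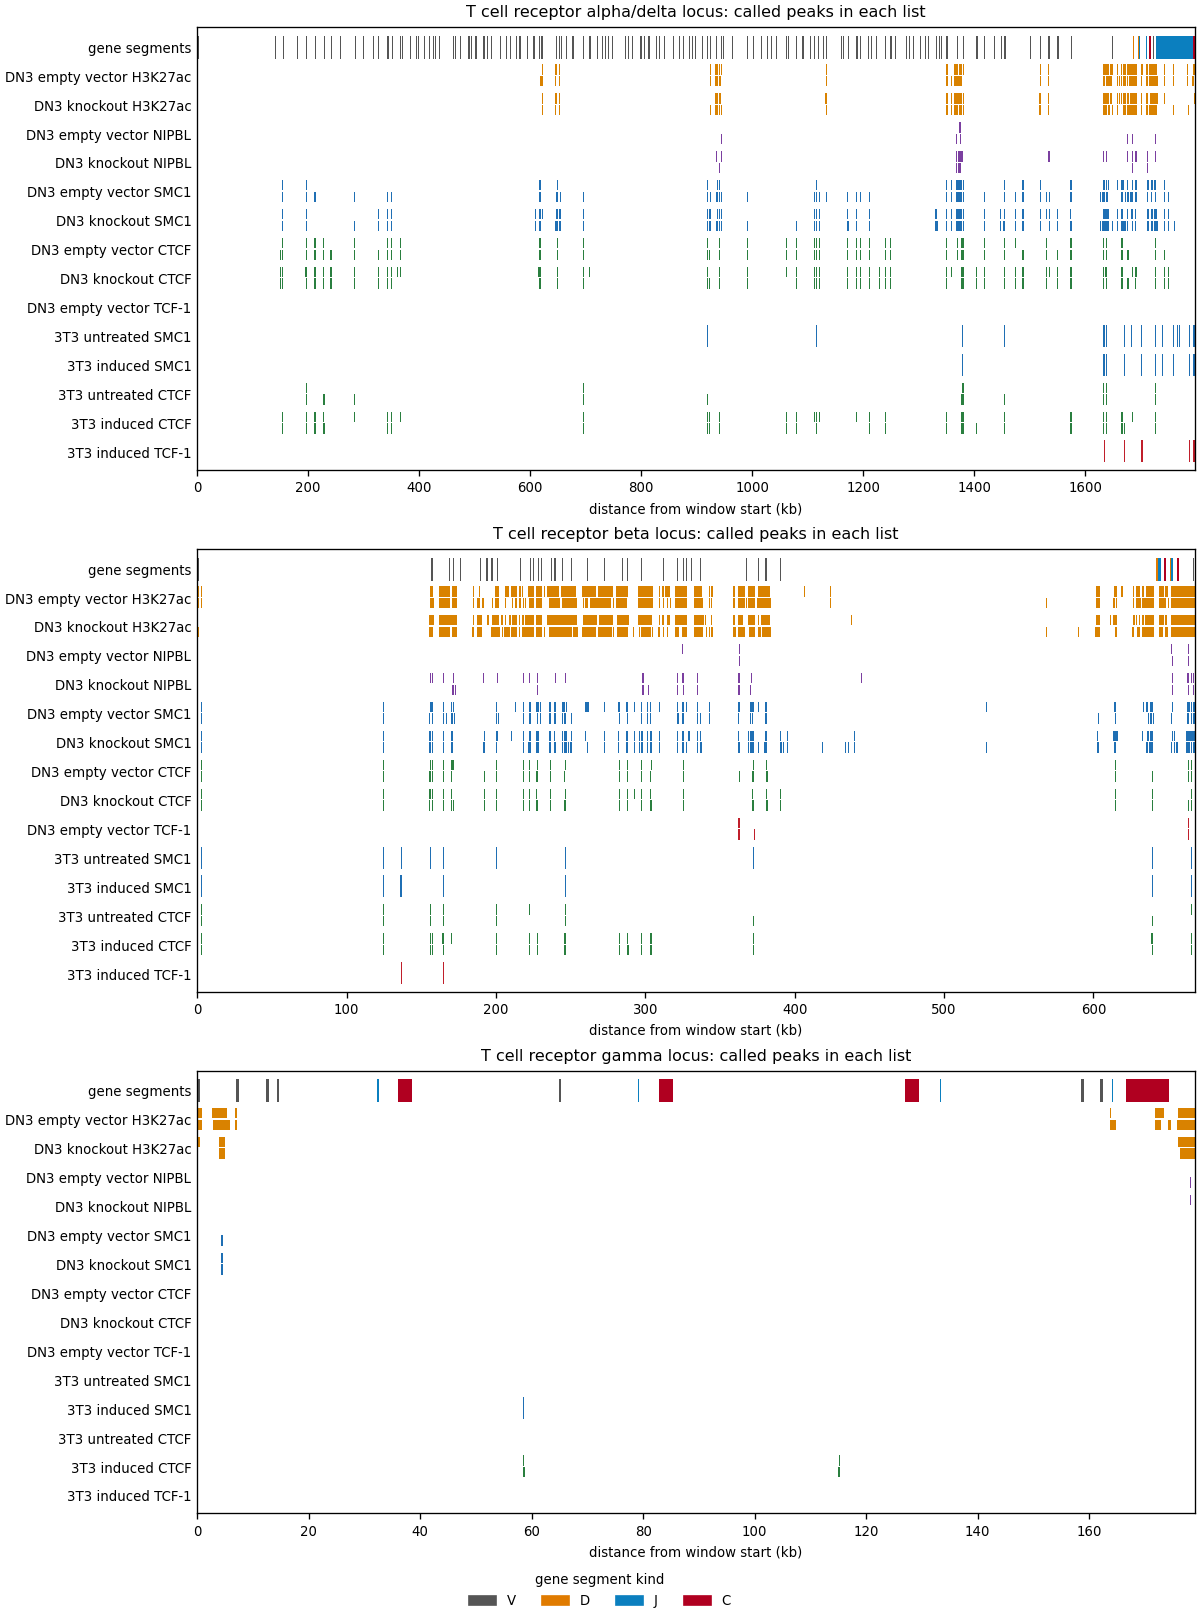
Called peaks in the alpha/delta, beta and gamma loci, with distance from the window start in kb on each x axis and a row for each group, in which the upper and lower half-rows are lists 1 and 2 (a full-height bar where a group has 1 list); gene segments are drawn at the top by kind. Peaks of Scid.adh cells are dense from Trbv2 to Trbv30 and around Trdc, but stretches of 121.1 and 83.2 kb of the beta locus hold none. The middle of the gamma locus also holds no Scid.adh peak.

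Peaks were spread very unevenly over the loci. The 2 longest stretches without a peak in any of the 25 lists lay in the alpha V array. They were 243.6 kb long with 28 V segments (chr14:52792153-53035780) and 212.9 kb long with 25 V segments (chr14:53132652-53345563). These stretches hold the near-identical d and n copies of alpha V genes, which carry a d or n in their symbols. Of 74 such copies, 14 (18.9%) were met by a peak in some list, against 28 of the 62 other alpha/delta V segments (45.2%). The 62 others include segments of the same families without such a letter, so the 2 shares do not divide duplicated from unique segments. Reads from near-identical copies may not be placed uniquely, and how they were handled is not stated. Values at single copies are therefore uncertain, and how far this sets the empty stretches was not tested. In the gamma locus, the 156.6 kb from chr13:19185075 to chr13:19341701 held no peak in any Scid.adh list and covered 11 of the 15 gamma segments, from Trgv6 to Trgv1. CTCF peaks of all 4 Scid.adh lists lay 21 to 69 bp from Trgv7, just outside the window edge, so the gamma values below leave nearly all of them out.

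For the description below, each base of a window was given to the V part or to the D, J, C part by its nearest segment. The V parts measured 1672.2 kb in the alpha/delta locus, 522.7 kb in the beta locus and 61.4 kb in the gamma locus, and the D, J, C parts 125.8, 145.3 and 117.6 kb. The stretch of trypsinogen genes between Trbv30 and Trbd1 was thus split at chr6:41407596. The side nearer Trbv30, with Try4, was counted with V, and the side nearer Trbd1, with Prss2, with D, J, C. Trbv31 is a V segment that lies beyond Trbc2, and the side of the beta enhancer stretch next to it was counted with V.

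H3K27ac separated the beta V array from the alpha V array. In EV lists 1 and 2, H3K27ac covered 26.3% and 25.1% of the beta V part, but 2.86% and 3.22% of the alpha/delta V part. KO lists gave 27.3% and 27% for beta V and 2.94% and 2.93% for alpha/delta V. The lists of the 2 arrays were far apart, and each pair of lists differed by little. Of 22 beta V segments not annotated as pseudogenes, 21 had an H3K27ac peak within 1 kb in both EV lists and 20 in both KO lists. The exception in EV was Trbv30, the last segment before the trypsinogen genes, which no H3K27ac list met. Of 13 beta V pseudogenes, 9 were met in both EV lists and Trbv9 in 1 of them. Trbv6, Trbv8 and Trbv25 were met in no EV list, and Trbv8 was met in 1 KO list.

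Among alpha/delta segments, 13 of 119 V segments that are not pseudogenes, and 1 of 17 V pseudogenes, had H3K27ac within 1 kb in both EV lists. Acetylated V segments included the delta segments Trdv2-1, Trdv2-2, Trdv4 and Trdv5 and the alpha segments Trav3-4, Trav12-4 and Trav13-5. The Trav14d-3-dv8 and Trav14n-3 copies, and Trav13d-4 and Trav13n-4, were acetylated too, and here reads may not tell the copies apart. In the whole D, J, C part, which holds Trdc, the delta constant gene, as well as the alpha J array and Trac, EV lists covered 34.0% and 31.0%. Around Trdc with 1 kb on each side, EV lists summed to 9416 bp and KO lists to 8070 bp. Of the delta segments, Trdd1, Trdj2 and Trdc had H3K27ac within 1 kb in all 4 lists, and Trdv1, Trdv3, Trdd2 and Trdj1 had it in none.

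CTCF followed another pattern. It met 9 of 22 beta V segments and 3 of 13 beta V pseudogenes in both EV lists, and 20 of 119 and 2 of 17 in the alpha/delta locus. It met no D, J or C segment in both EV lists. Among the segments met in all 4 Scid.adh CTCF lists, the widest summed coverage lay at Trbv2 (3456 bp), Trbv12-2 (2725 bp), Trbv23 (2419 bp), Trbv12-1 (2325 bp) and Trbv10 (2280 bp), and in the alpha locus at Trav17 (2203 bp), Trav3-4 (2023 bp) and Trav5-1 (2017 bp). All 22 beta regions that both EV CTCF lists held overlapped SMC1, and 21 of them (95.5%) overlapped H3K27ac. For the alpha/delta locus, 17 of 38 (44.7%) overlapped SMC1 and 8 (21.1%) overlapped H3K27ac, against 84.9% and 24.9% of 40103 such CTCF regions in the genome. In KO cells 33 of 47 alpha/delta CTCF regions (70.2%) overlapped SMC1, beside 87.6% over the genome, so the gap of the alpha/delta regions from the genome was smaller there. Overlap was counted with SMC1 regions held by both lists of a group. In the alpha/delta window EV list 1 had 44 SMC1 peaks, EV list 2 had 70 and KO lists had 71 and 86. The lower EV share may therefore rest on 1 list. These shares were not tested.

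SMC1 and NIPBL met the beta J2 cluster in every Scid.adh list. SMC1 met 12 of 22 non-pseudogene beta V segments in both EV lists, 16 in both KO lists, and it met Trbj2-1 to Trbj2-7, which are 7 of 14 beta J segments, in both groups. NIPBL met no V segment in both EV lists. It met the 7 segments Trbj2-1 to Trbj2-7 in all 4 lists with 1156 to 1186 bp covered, summed over the lists. These J segments share 1 site, so they are not 7 observations.

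**Figure D2:**
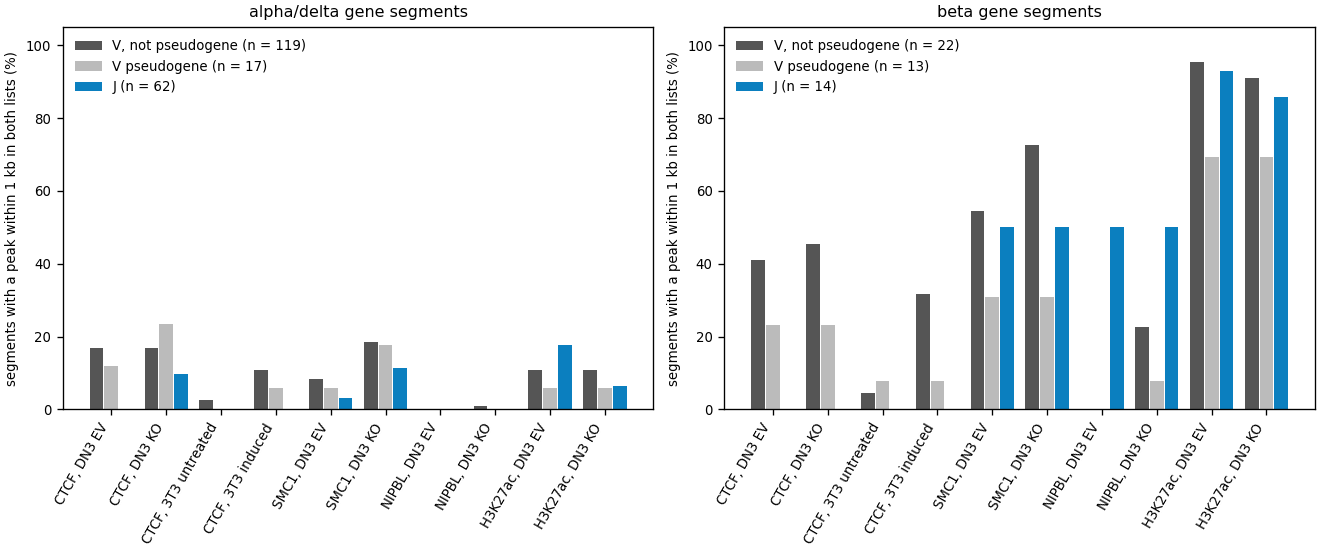
Percent of V segments without pseudogene annotation, V pseudogenes and J segments of the alpha/delta (left) and beta (right) loci that had a peak within 1 kb in both lists of a group, by antibody and group on the x axis. Beta V segments reach 95.5% for H3K27ac in EV cells, against 10.9% for alpha/delta V segments.

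Among the 17 promoters in the windows with a RefSeq sequence, 2 were met by H3K27ac in all 4 Scid.adh lists, and their sequences are shown because they are where the data bear on a start site. Gm30392 is a long noncoding RNA gene that spans Trdv2-2, with its promoter at chr14:53961603-53961902 on the minus strand, and Prss2, a trypsinogen gene of the beta locus, has its promoter at chr6:41521526-41521825 on the plus strand. Each run covers 250 bases before to 50 bases after the annotated start, from RefSeq on GRCm38.p6. Capitals mark the TCF-1 type motifs CTTTGA and CTTTGT and the TATA motif TATAAA on either strand.
Gm30392: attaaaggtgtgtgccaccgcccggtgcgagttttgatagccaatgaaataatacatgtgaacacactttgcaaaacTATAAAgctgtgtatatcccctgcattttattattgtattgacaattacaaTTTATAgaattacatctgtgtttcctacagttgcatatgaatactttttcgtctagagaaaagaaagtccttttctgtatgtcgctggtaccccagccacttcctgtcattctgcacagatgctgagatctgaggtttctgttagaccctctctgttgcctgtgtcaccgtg
Prss2: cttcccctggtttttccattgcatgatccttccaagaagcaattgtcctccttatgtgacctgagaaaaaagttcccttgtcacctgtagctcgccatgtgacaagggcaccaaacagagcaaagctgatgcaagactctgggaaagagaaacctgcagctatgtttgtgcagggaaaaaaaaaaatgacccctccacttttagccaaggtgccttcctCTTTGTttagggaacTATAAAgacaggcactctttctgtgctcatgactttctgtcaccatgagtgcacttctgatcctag
Gm30392 held 2 TATAAA matches and no CTTTGA or CTTTGT match, and Prss2 held 1 CTTTGT and 1 TATAAA match. Of 32851 RefSeq promoters of this length, 16.0% held CTTTGA, 18.7% held CTTTGT and 13.6% held TATAAA. No TCF-1 list had a peak at either promoter. The Gm30392 promoter was also met by SMC1 in 1 EV list and 2 KO lists, by NIPBL in 1 KO list and by CTCF in 1 KO list.

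TCF-1 itself had few peaks at the loci. EV list 1 placed 0 bp in the alpha/delta window, 421 bp in the beta window and 0 bp in the gamma window, and EV list 2 placed 0, 877 and 0 bp. Only 2 regions were held by both lists, out of 3107 in the genome. The first, chr6:41554356-41554825, lay between Trbc2 and Trbv31, 2868 bp from Trbv31, in the stretch of the beta enhancer. CTCF in both EV lists and 1 KO list, and SMC1, NIPBL and H3K27ac in all 4 lists each, also had a peak there. The second, chr6:41253328-41253548, lay within the pseudogene Gm2719, 4573 bp from Trbv27, and SMC1, NIPBL and H3K27ac met it in all 4 lists as well, with CTCF in 1 EV list. Of the 3107 regions in the genome, 98.6% overlapped an SMC1 region held by both EV lists. The share was 97.0% for H3K27ac, 72.8% for NIPBL and 45.9% for CTCF. Overlap with SMC1, H3K27ac and NIPBL was thus common at TCF-1 regions and not particular to the loci. Another region, at chr6:41263583-41263782, 2915 bp from Trbv28, was held by 1 list.

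Just outside the alpha/delta window a TCF-1 region in both EV lists lay 3141 bp past Trac (chr14:54227339-54227818), between Trac and Dad1, in the stretch of the alpha enhancer. CTCF, SMC1, NIPBL and H3K27ac each met it in both EV and both KO lists. Most TCF-1 regions of the genome also overlapped SMC1, H3K27ac and NIPBL, as given above, and 45.9% overlapped CTCF. H3K27ac covered 8707 and 10020 bp of the 11.29 kb between Trac and Dad1 in EV cells and 8978 and 9196 bp in KO cells, so these ranges overlapped. Between Trbc2 and Trbv31, H3K27ac covered all 9511 bp in each of the 4 lists. That stretch was covered from end to end, so covered length could not show a difference there.

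**Figure D3:**
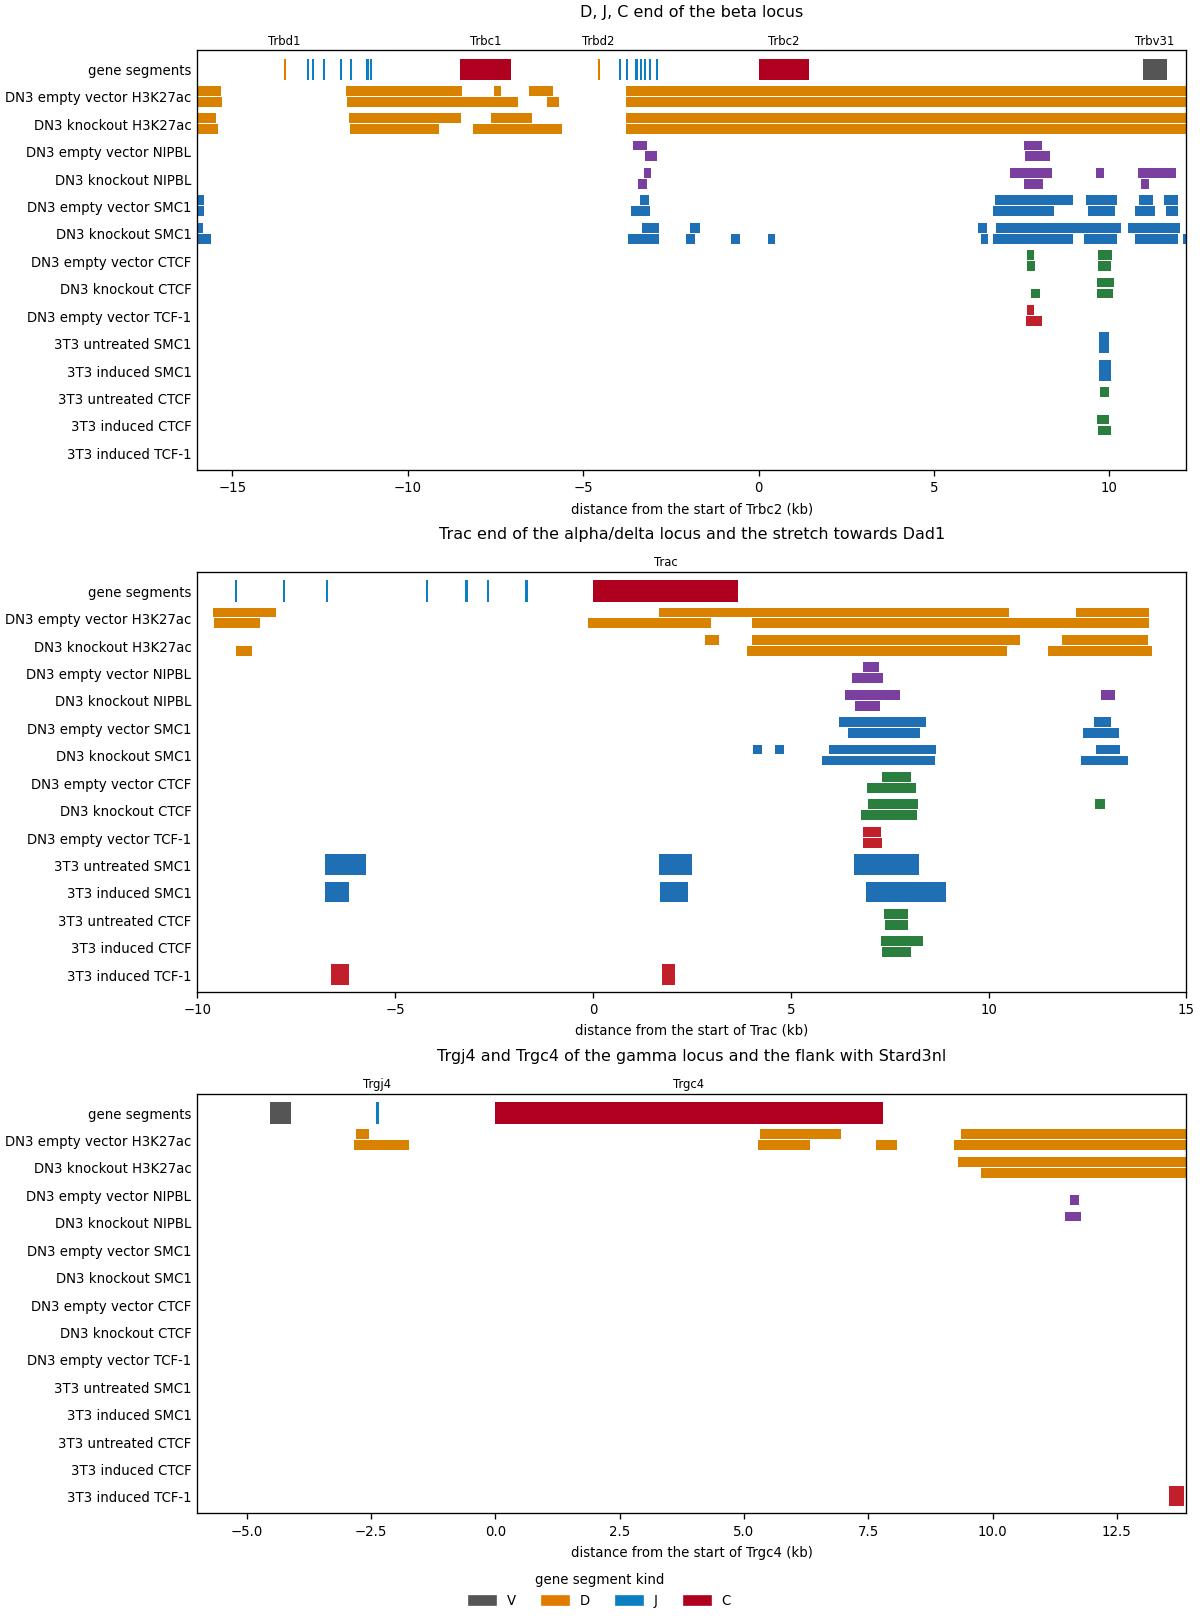
Called peaks at the D, J, C end of the beta locus, at Trac and towards Dad1, and at Trgj4 and Trgc4, with distance in kb from the start of Trbc2, Trac or Trgc4 on the x axes and rows as in the locus maps. H3K27ac spans the whole Trbc2 to Trbv31 stretch in all 4 lists, whereas at Trgj4 and Trgc4 it is drawn in EV rows only.

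EV and KO cells were compared to ask how binding at the loci differs without TCF-1. With 2 lists against 2, an exact permutation test cannot give p below 0.33, so groups were compared by whether their lists overlapped. A region was called as held by one group only when both lists of that group and neither list of the other held it. Leaving out a list loosens that rule, so the counts without 1 list are given as ranges.

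H3K27ac was lower in KO cells at the gamma locus. The gamma V part had 3988 and 4191 bp covered in EV cells and 1533 and 916 bp in KO cells, a KO to EV ratio of 0.299. The gamma D, J, C part had 4977 and 5785 bp in EV cells and 3132 and 2682 bp in KO cells, a ratio of 0.540. The groups did not overlap in either part, which held in this direction for 34.1% of 100 kb tiles over the genome. Of 6 gamma H3K27ac regions, 3 were held only by EV cells and 0 only by KO cells, and over the genome 7.99% of H3K27ac regions were held only by EV cells and 4.83% only by KO cells. The 3 regions overlapped Trgv4 (chr13:19184754-19185074), Trgj4 (chr13:19341702-19342810) and Trgc4, a gamma constant gene (chr13:19349842-19351499). From Trgj4 to the end of Trgc4, EV lists covered 1619 and 1835 bp and KO lists 0 and 0 bp, so what KO lists covered in that part lay outside this interval. The other gamma constant genes, Trgc1, Trgc2 and Trgc3, had no peak within 1 kb in any list. Over all loci, 5 of 81 H3K27ac regions were held only by EV cells (6.17%), 2 only by KO cells and 51 by every list (63.0%, beside 47.9% over the genome). Without 1 list, the count of EV cells lay between 8 and 10. With only the stronger peaks of each list kept, 1 gamma region was held only by EV cells, and the D, J, C part no longer separated the groups.

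The alpha J and C end also had less H3K27ac in KO cells. Over the body of Trac, the alpha constant gene, H3K27ac covered 2018 and 2981 bp in EV cells and 358 and 0 bp in KO cells. From Traj61 to Traj1, EV lists covered 3502 and 3383 bp and KO lists 1856 and 1687 bp. Neighbouring alpha J segments can share a peak, so the segments counted next are not separate observations. H3K27ac met 12 alpha/delta J segments in at least 1 EV list and 11 in at least 1 KO list. Peaks lay within 1 kb of 11 alpha/delta J segments in both EV lists and of 4 in both KO lists. The 7 J segments that did so in EV alone were Traj49, Traj48, Traj33, Traj32, Traj8, Traj7 and Traj6, and except Traj8, which no KO list met, each was met by 1 KO list. These stretches were narrow beside the whole D, J, C part, which had 42770 and 39049 bp in EV cells and 35559 and 38182 bp in KO cells, a ratio of 0.901. The interval from Trdd1 to Trdj2 went the other way, with 7857 and 7893 bp in EV cells and 9634 and 9120 bp in KO cells. Trdd1 is a delta D segment and Trdj2 a delta J segment.

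In the beta locus, H3K27ac differences were small. The V part had 137304 and 130973 bp in EV cells and 142426 and 140958 bp in KO cells, a ratio of 1.06, and the lists did not overlap. The direction of this difference turned with only the stronger peaks kept, to a mean KO minus EV difference of -14345.5 bp. The D, J, C part had 31240 and 32061 bp in EV cells and 29023 and 30518 bp in KO cells, a ratio of 0.941. It turned to a mean KO minus EV difference of 23 bp when the D, J, C part ran only from Trbd1 to Trbc2. That division gives all of the stretch of trypsinogen genes before Trbd1 to V. Of the 6 parts, 4 had all EV lists above all KO lists and 1 the reverse, and of the tiles 34.1% and 31.0% did.

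NIPBL covered more of both large V arrays in KO cells. EV lists covered 978 and 875 bp of the beta V part and KO lists 10034 and 5403 bp, a ratio of 8.33, beside 1.94 for the genome (1.19 without KO list 1). Over the alpha/delta V part EV lists covered 379 and 1557 bp and KO lists 7003 and 3177 bp, a ratio of 5.26. Without 1 list the alpha/delta ratio was 3.27 (EV list 1), 13.4 (EV list 2) or 3.28 (KO list 1), so the order of the 2 arrays rests on single lists. Both parts had no overlap between groups, which held for 27.5% of 100 kb tiles. The beta V lists of KO cells also exceeded those of EV cells as a share of each list's covered length, by 422.3 bp per Mb covered on average.

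Of 40 NIPBL regions in the loci, 9 were held only by KO cells and 0 only by EV cells, or 22.5% against 5.88% of regions over the genome, with 0.251% only in EV. Every list held 4 of them (10%, beside 27.5% over the genome). Of the 9 held only by KO cells, 7 lay in the beta V part, at or near Trbv5, Trbv12-2, Trbv20, Trbv22, Trbv26, Trbv27 and Trbv31. The other two lay near Trav13-5 and Trdj2. The widest was 1146 bp, over Trbv12-2 (chr6:41118295-41119440), and the next 1096 bp, over Trbv31 (chr6:41557546-41558641). The KO lists had 23951 and 14107 NIPBL peaks and the EV lists 9206 and 15232. With every list cut to the length of the shortest, 1 region in the loci was held only by KO cells, and the alpha/delta V difference turned to a mean of -13 bp while that of beta V fell to 330.5 bp. Without 1 list the count lay between 10 and 26, the highest without KO list 2.

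At the Trbj2 cluster NIPBL went the other way. EV lists covered 380 and 340 bp between Trbd2 and Trbc2 and KO lists 209 and 257 bp, and this was all the NIPBL in the beta D, J, C part. The groups did not overlap, which held in this direction for 0.638% of tiles, but they no longer separated with only the stronger peaks or with equal list lengths. At the Trbc2 to Trbv31 stretch, EV lists covered 529 and 700 bp and KO lists 1557 and 629 bp, which overlapped.

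SMC1 covered more of every part but gamma D, J, C in KO cells. In the alpha/delta V part EV lists covered 15123 and 22328 bp and KO lists 28297 and 34139 bp, a ratio of 1.67. In the beta V part EV lists covered 30422 and 23177 bp and KO lists 35571 and 37893 bp, a ratio of 1.37. In the beta D, J, C part EV lists covered 4838 and 3055 bp and KO lists 6360 and 7243 bp, a ratio of 1.72. The ratio was 1.52 in the alpha/delta D, J, C part and 5.11 in the gamma V part, where few bp were covered. Of these parts only beta V lay below the genome ratio of 1.43. KO lists were higher in 66.9% of tiles and EV lists in 2.20%. As a share of each list's covered length, KO lists were above EV lists in 2 parts in place of 5, and the mean beta V difference, KO minus EV, was -29 bp per Mb covered.

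Of 170 SMC1 regions in the loci, 17 were held only by KO cells (10%) and 2 only by EV cells, against 9.26% and 0.969% of the genome's regions, so the loci were near the background. Every list held 64 (37.6%, beside 43.6%). With equal list lengths 7 were held only by KO cells, and without 1 list between 24 and 42. The regions of KO cells lay over Trav14d-3-dv8, Trbv20, Trbv30 and Trav23 and 382 bp from Trdv5 among the widest. Those of EV cells lay 517 bp from Trbv13-2 and 5834 bp from Trbv26. The gamma V part had 3 and 212 bp in EV cells and 522 and 576 bp in KO cells, from a region between Trgv7 and Trgv4 and the edge of a peak at Trgv7. The gamma D, J, C part had no SMC1 peak in Scid.adh cells.

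CTCF coverage of the V parts had KO to EV ratios near that of the genome. The alpha/delta V part had 12796 and 16007 bp in EV cells and 19160 and 17473 bp in KO cells, a ratio of 1.27, beside 1.28 for the genome. The alpha/delta D, J, C part had 384 and 1349 bp in EV cells and 2123 and 1926 bp in KO cells, a ratio of 2.34, which was 1.5 without EV list 1 and 5.27 without EV list 2. KO lists were higher in 3 of 6 parts and in 46.5% of tiles, and EV lists in no part and 0.944% of tiles. Of 88 CTCF regions, 5 were held only by KO cells (5.68%) and 1 only by EV cells, against 6.36% and 0.460% of the genome's regions, and 56 by every list (63.6%, beside 55.2%). Those of KO cells lay over Trbv30 and Traj42, 52 bp from Trav18, 4707 bp from Trav15-2-dv6-2 and 3984 bp from Trdd1, and that of EV cells 640 bp from Trav13-5. Both KO lists had CTCF within 1 kb of 6 alpha J segments, Traj41 to Traj43 and Traj48 to Traj50, and no J segment had it in both EV lists. At least 1 EV list had it at 2 J segments. Neighbouring J segments can share a peak, so these are not separate observations. With all lists cut to equal length, 0 CTCF regions were held only by KO cells, and without 1 list between 7 and 13.

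**Figure D4:**
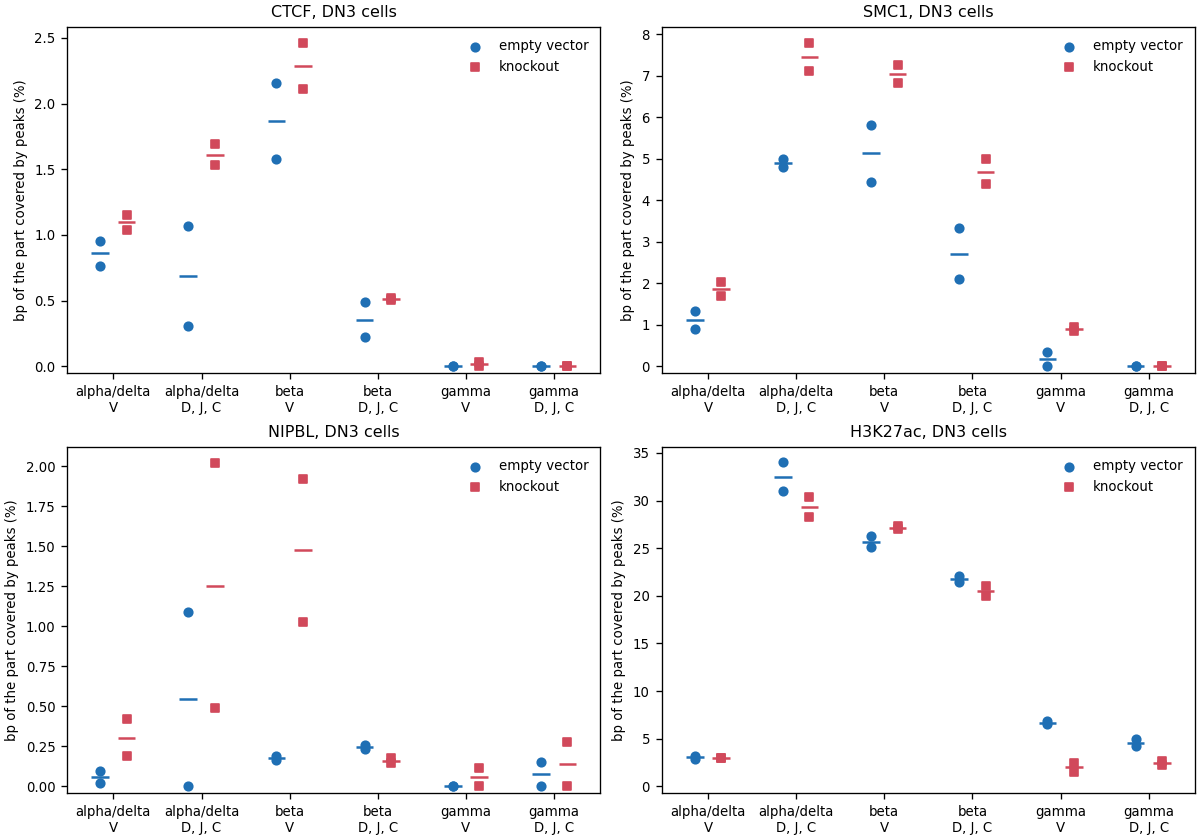
Percent of each V and D, J, C part covered by called peaks in each Scid.adh list, with a panel per antibody, circles for EV lists, squares for KO lists and a short line at each group mean; the y axes differ between panels. The 2 gamma parts stand out in the H3K27ac panel, with EV lists at 4.23% to 6.83% and KO lists at 1.49% to 2.66%, and beta V in the NIPBL panel.

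Scid.adh cells were compared with fibroblasts to ask how the loci differ between a line of the T lineage and one outside it. To allow for list length, covered bp in a locus was divided by the list's whole covered length (bp per Mb covered). For CTCF in the alpha/delta locus, EV lists had 796 and 750 bp per Mb covered, KO lists 767 and 834, untreated fibroblasts 130 and 171, and induced fibroblasts 260 and 247. In the beta locus EV lists had 518 and 518, KO lists 491 and 505, untreated fibroblasts 130 and 120, and induced fibroblasts 186 and 178. All 4 Scid.adh lists were above all 4 fibroblast lists in both loci.

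The means were 786.7 against 202.0 in the alpha/delta locus and 508.0 against 153.6 in the beta locus. Each difference gave p = 0.0286 in an exact two-sided permutation test of 4 lists against 4, the smallest it allows. After Benjamini-Hochberg adjustment over 6 comparisons the value was 0.0858, which missed the threshold of 0.05. In 18.8% of 100 kb tiles all Scid.adh lists were above all fibroblast lists, and in 14.0% all were below. The gamma window held little CTCF in either line, with 0.2 bp per Mb covered in Scid.adh and 7.2 in fibroblasts (exact permutation p = 0.429). These values leave out nearly all of the CTCF peaks at Trgv7, which lie just outside the window edge. All 4 Scid.adh lists and 3 of 4 fibroblast lists had CTCF within 1 kb of Trgv7.

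SMC1 was compared in the same way. In the alpha/delta locus EV lists had 571 and 734 bp per Mb covered, KO lists 713 and 779, and the untreated and induced fibroblast lists 117 and 71.7. In the beta locus EV lists had 941 and 678, KO lists 802 and 800, and the fibroblast lists 35.0 and 25.8. With 4 lists against 2, the exact permutation test gave p = 0.133 in both loci, the smallest possible there, and 0.267 in the gamma locus. The lists of the 2 lines did not overlap in the alpha/delta and beta loci, which held for 32.6% of tiles in this direction and 34.3% in the other.

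**Figure D5:**
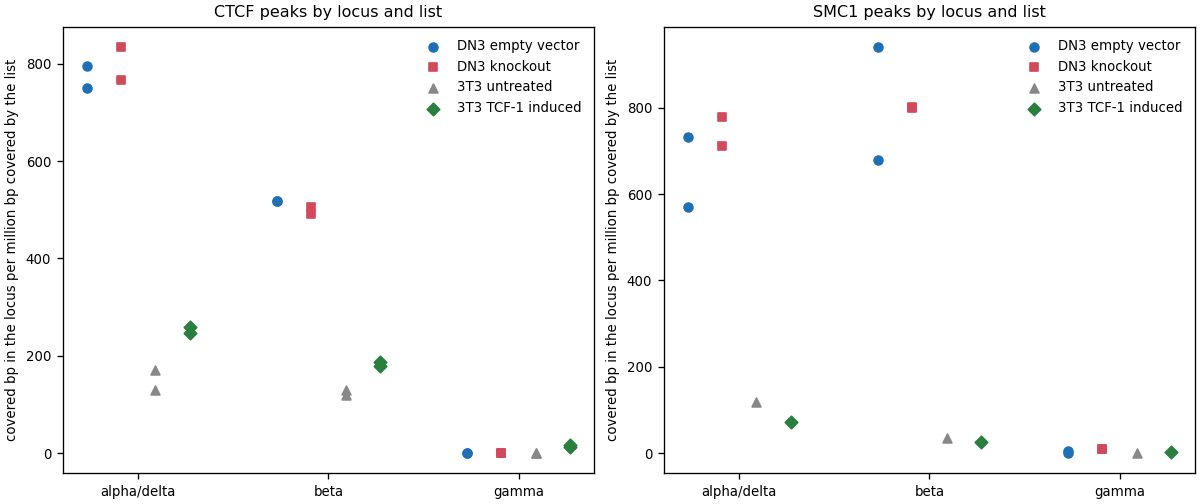
Covered bp in each locus per Mb covered by the list, for CTCF (left) and SMC1 (right), a point per list, by cell line and treatment. In the alpha/delta and beta loci all Scid.adh points lie above all fibroblast points.

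Of 91 CTCF regions in the loci, 14 (15.4%) were held by all 4 Scid.adh lists and no fibroblast list, 0 by fibroblasts only and 13 by every list. Without 1 list the first count lay between 14 and 21, with equal list lengths it was 29, and between the cells without TCF-1 alone it was 50. That last comparison draws on fewer lists, so its rule is looser. The genome shares that follow belong to the main rule only. Over the genome 2.36% were held only by Scid.adh, 3.21% only by fibroblasts and 30.0% by every list. All but 1 of the 14 lay in V parts, 9 of them in the alpha/delta locus. The widest were 770 bp over Trbv23 (chr6:41215899-41216668), 608 bp near Trav16d-dv11, 576 bp 160 bp from Trbv12-3, 564 bp 57 bp from Trbv29, and 492 bp near Trbv11. The one outside the V parts, chr6:41505339-41505728, lay among the trypsinogen genes 27473 bp before Trbd1. Regions in every list were 14.3% of those in the loci.

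Of 178 SMC1 regions, 47 (26.4%) were held only by Scid.adh, 6 only by fibroblasts and 10 by every list, beside 6.12%, 19.0% and 20.9% over the genome. Scid.adh alone had SMC1 over the V segments Trbv12-2, Trbv12-1, Trbv5, Trbv29, Trbv31, Trbv23 and Trbv19, and 9733 bp from the delta segment Trdd1, where a region of 1829 bp was the widest. It also had a region over Trbj2-3 of the beta J2 cluster (chr6:41543018-41543904). Without 1 list the Scid.adh count lay between 47 and 70, and between the cells without TCF-1 alone it was 94. Fewer lists are compared there, so the rule is looser and the genome shares above do not apply. By contrast, 5 of the 6 regions of fibroblasts lay in the alpha/delta D, J, C part. They were near Trdj1, over Traj51, Traj33 and Traj5, and over Trac (chr14:54222201-54223032). The sixth lay between Trbv1 and Trbv2, 19977 bp from Trbv2. The fibroblast SMC1 lists met 14 of 62 alpha/delta J segments in untreated cells and 6 in induced cells, and no beta J segment. Neighbouring J segments can share a peak, so these are not separate observations.

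TCF-1 in the 2 lines had no region in common at the loci. Of 10 regions, 2 were held only by Scid.adh and 7 only by fibroblasts, and over the genome 1.63% and 83.3% were, with 5.73% in all 3 lists. Fibroblast TCF-1 regions lay 12999 bp from Trdv4, 16052 bp from Trdd1, 5244 bp from Trdj1, 64 bp from Traj5, within Trac, 20140 bp from Trbv2 and 3635 bp from Trbv4. All 7 coincided with an SMC1 peak of untreated fibroblasts, and 6 with one of induced fibroblasts. So SMC1 was called at these places also in the cells without induced TCF-1. The share of all fibroblast TCF-1 peaks with such overlap was not computed. The fibroblast SMC1 lists were long, with 105033 peaks in untreated and 95293 in induced cells, so these counts are not read as particular to the loci. At 5 of the 7, SMC1 was not called in any Scid.adh list. The list had 39489 TCF-1 peaks against 4978 and 5356 in Scid.adh.

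Induced and untreated fibroblasts were compared to ask whether TCF-1 alters binding at the loci outside the T lineage. CTCF covered 2301 and 3439 bp of the alpha/delta window in untreated cells and 9757 and 8474 bp in induced cells. In the beta window it covered 2310 and 2411 bp in untreated and 6993 and 6105 bp in induced cells, and in the gamma window 0 and 0 bp against 431 and 596 bp. The gamma values leave out CTCF peaks at Trgv7, outside the window edge. The groups did not overlap in any window, which held for 85.5% of tiles, and for 0.215% in the other direction.

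Of 51 CTCF regions, 22 (43.1%) were held only by induced cells and 0 only by untreated cells, against 21.2% and 0.0504% of the genome's regions. Every list held 13 (25.5%, beside 44.5%). The regions held only by induced cells included some over Trav6-1, Trbv3, Trbv19 and Trbv20, 10 bp from Trav3-3, 58 bp from Trdv3 and 124 bp from Trav3-4. The untreated lists had 38369 and 41236 peaks and the induced lists 68306 and 64645. With lists of equal length 1 region was held only by induced cells and 2 only by untreated cells. SMC1, with 1 list each and no replicate check, went the other way, with 11479 bp of the alpha/delta window covered in untreated cells and 6773 bp in induced cells. Of 27 SMC1 regions 9 were in the untreated list alone (33.3%) and 1 in the induced list alone (3.70%), and over the genome 20.1% and 11.9% were. Both lists held 17 (63.0%, beside 68.0%).

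Genes that act on these loci or with their products were read from a list of 15. H3K27ac met the body of 14 of them in all 4 Scid.adh lists, beside 50.1% of 21887 protein-coding genes, and Rag2 was the exception. H3K27ac covered 1911 and 1462 bp of Rag1 in EV cells and 3499 and 3315 bp in KO cells. It covered 8680 and 6329 bp of Dntt, which adds bases at the joins, in EV cells and 13653 and 15937 bp in KO cells. For Ptcra, which pairs with a new beta chain, EV lists had 5411 and 4124 bp and KO lists 3421 and 3500 bp. EV and KO lists did not overlap for these 3 genes. Of all 15 genes, 4 had both KO lists above both EV lists (Rag1, Dntt, Cd3e and Xrcc4), 2 the reverse (Ptcra and Lck), and 9 overlapped or tied. Of 12010 protein-coding genes with any H3K27ac in their body, 25.5% had both KO lists higher and 26.3% both EV lists higher, so these counts were near the background.

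A NIPBL region held only by KO cells lay within 10 kb of 5 of the 15 genes (Rag1, Dntt, Cd247, Lck and Lcp2), beside 5.65% of protein-coding genes. An SMC1 region held only by KO cells lay within 10 kb of 8, beside 25%, and one held only by EV cells within 10 kb of 2 (Rag2 and Cd247), beside 3.86%. For H3K27ac, 4 had a region only in KO cells (6.55% of genes) and 3 a region only in EV cells (9.58%). CTCF regions held only by KO cells lay near Cd247 alone (14.8% of genes). CTCF and NIPBL regions held only by EV cells lay near 0 of the 15 genes, beside 1.59% and 0.366%.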

How the data were processed

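ChIP-seq peak lists of 25 samples, in mm10, were analysed. The submitters' processing notes name Bowtie2, MACS2 and bedtools. Their versions and settings, and any input control, are not stated in the sources used here. The deposited lists of CTCF, SMC1 and TCF-1 have 3 columns with positions only, and their peaks were ranked by width. The deposited lists of NIPBL and H3K27ac have 9 columns, with a score and a fold for each peak. A −log10 p and a −log10 q were also deposited there, and only q was used, to rank peaks inside a list. Depth was unknown, so no counting interval was made.

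A peak was counted where its midpoint lay, and covered bp was cut at window and part edges. For each antibody, overlapping peaks of the lists were joined to regions, and 1 bp of overlap put a region in a list. Tiles of 100 kb with any peak gave the background for covered bp. Segments, taken with 1 kb on each side, and genes, with 10 kb, came from RefSeq (GRCm38.p6). The 2 lines were compared by exact permutation tests enumerated with scipy 1.17.1 (python 3.11.15, pandas 2.3.3), adjusted by Benjamini-Hochberg. Joining was checked with bedtools 2.31.1 and tested on simulated data.

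The members, windows and lists were chosen with earlier results of these data known. Genes named were all C and D segments, up to 10 segments per antibody and line met in most lists, those nearest to regions of 1 group only (up to 10 per direction, widest first) and to TCF-1 regions, and 15 genes of recombination and receptor assembly. Further segments given as examples were picked with their values in view. Alternatives were 50% overlap, the stronger peaks of each list, equal list length, joining across 500 bp and a contiguous D, J, C part. The contiguous part ran from the first to the last D, J or C segment of a locus, with the rest given to V. Others were shares of covered bp, cells with or without TCF-1 alone, and leaving out each list. The stronger peaks were those at or above the median rank, which for CTCF, SMC1 and TCF-1 means the wider ones.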

Additional observations from a re-analysis of the deposited data

Results flagged for a closer look

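Where all lists with TCF-1 moved one way against those without it in Scid.adh and the opposite way in fibroblasts, the values are as follows, and the difference between the lines was not tested. CTCF coverage of the alpha/delta V part was lower with TCF-1 in Scid.adh, by a mean difference of -3915 bp, and higher with it in fibroblasts, by 5731 bp. In the alpha/delta D, J, C part the mean differences with TCF-1 minus without were -1158 and 514.5 bp. In the beta D, J, C part they were -227 and 384 bp. SMC1 in the gamma V part gave -441.5 bp in Scid.adh and 205 bp in fibroblasts, the latter from 1 list each. In both lines the group with more CTCF in the alpha/delta locus also had the longer lists. As shares of covered length, with TCF-1 minus without, CTCF in the alpha/delta V part was higher with TCF-1 in both lines, by 11.2 bp per Mb covered in Scid.adh and 97.5 in fibroblasts, so the directions were no longer opposite. The mean differences remained opposite in the alpha/delta D, J, C part (-38.9 and 5.6), the beta D, J, C part (-4.2 and 8.0) and, for SMC1, the gamma V part (-7.3 and 2.2). In the beta D, J, C part, however, the lists with and without TCF-1 overlapped as shares in both lines. The shares were computed after seeing the data.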

How the results depend on the processing

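Depth was unknown and lists differed in length, which limits every count below. The stronger peaks are those at or above the median rank of their list. For CTCF, SMC1 and TCF-1 the rank is width, so there both this setting and equal list length keep the wider peaks, and no measure of strength was available. With only the stronger peaks kept, regions only in EV cells numbered 0 for CTCF, 0 for SMC1 and 9 for H3K27ac, and only in KO cells 7 for SMC1, 3 for NIPBL and 0 for H3K27ac. With equal list lengths, regions only in KO cells numbered 0 for CTCF, 7 for SMC1 and 1 for NIPBL. At 50% overlap, those only in EV cells numbered 1 for SMC1, 1 for NIPBL and 10 for H3K27ac. In fibroblasts, in alternatives chosen after seeing the data, stronger peaks gave 3 CTCF and 0 SMC1 regions only in induced cells and 2 SMC1 regions only in untreated cells. Equal lengths gave 1 CTCF region only in induced cells, and 2 CTCF and 5 SMC1 regions only in untreated cells.

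Between the lines, CTCF regions only in Scid.adh numbered 29 at equal lengths and 50 between cells without TCF-1, where those of SMC1 numbered 94. Comparing only cells with, or only cells without, TCF-1 uses fewer lists and loosens the rule. Such counts are therefore not read as an effect of TCF-1. CTCF regions only in fibroblasts numbered 2 between cells with TCF-1, and those of SMC1 3 with stronger peaks and 3 at equal lengths. TCF-1 regions only in Scid.adh numbered 1 at 50% overlap and 0 with stronger peaks, and only in fibroblasts 2 with stronger peaks and 0 at equal lengths. As shares of covered bp, KO lists were higher in 1 part for CTCF and 2 for SMC1, and EV lists in 1 for CTCF. For NIPBL, KO lists were higher in 1 part with stronger peaks and 1 at equal lengths, and EV lists in 0 under both. For H3K27ac, KO lists were higher in 0 parts with stronger peaks. Mean KO minus EV differences turned to -11.2 bp per Mb covered for CTCF in alpha/delta V and -29 for SMC1 in beta V as shares. That of NIPBL in alpha/delta V turned to -13 bp at equal lengths. That of H3K27ac in beta V turned to -14345.5 bp with stronger peaks. In beta D, J, C that of H3K27ac turned to 23 bp with the contiguous D, J, C part. The gamma CTCF difference between the lines, Scid.adh minus fibroblasts, turned to 0.2 bp per Mb covered at equal lengths, 0.3 with stronger peaks and 0.4 in cells without TCF-1. The causes were not tested. Ratios without each list, given beside the results they move, were added after seeing the data.

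Leaving out each list gave 2 to 3 CTCF, 2 to 10 SMC1, 0 NIPBL and 8 to 10 H3K27ac regions only in EV cells, and 7 to 13, 24 to 42, 10 to 26 and 3 to 6 only in KO cells. In fibroblasts it gave 24 to 28 CTCF regions only in induced cells. Only in Scid.adh it gave 14 to 21 CTCF, 47 to 70 SMC1 and 2 to 3 TCF-1 regions, and only in fibroblasts 0 CTCF, 6 to 8 SMC1 and 7 TCF-1 regions. Of 6 parts, KO lists were higher in 3 to 5 for CTCF, 5 for SMC1, 2 to 5 for NIPBL and 1 to 2 for H3K27ac, and EV lists in 0, 0, 1 and 4 to 5. Differences between the lines ranged from 560.6 to 604 (CTCF, alpha/delta), 343.2 to 365.2 (CTCF, beta), -9.4 to -3.6 (CTCF, gamma), 577.9 to 647.2 (SMC1, alpha/delta), 730.0 to 817.5 (SMC1, beta) and 4.1 to 7.5 (SMC1, gamma) bp per Mb covered. TCF-1 regions held in the loci numbered 2 to 3 when a TCF-1 list was left out, an alternative chosen after seeing the data.

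Lists of EV and KO cells share only replicate numbers. Deviations of same-numbered lists over tiles correlated at -0.13 for CTCF, 0.37 for SMC1, -0.33 for NIPBL and 0.03 for H3K27ac. The replicate block asks for the same direction in both same-numbered pairs, and gave 3 parts higher in KO cells for CTCF and 5 for SMC1. Parts whose lists do not overlap always pass it, so it could not lower these counts. It leaves the rule for calling regions as it was, so the counts of calls were bound to stay the same. It is therefore no check of either.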
